A study of Mus musculus with 6 samples.

Results

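The 30 genes described here encode enzymes and regulators of cholesterol and fatty acid synthesis. They were chosen by symbol from what they are known to do, with earlier results of these data known, out of 23049 gene rows in the deposited expression table. All 30 were found and all 30 passed the filter on low values, among 12102 genes tested. The samples were F4/80-positive cells sorted by flow cytometry from the dissociated corpus (body) of the mouse stomach. F4/80, encoded by Emr1, is a surface protein of macrophages. In both groups the mice had received a drug that destroys the acid-secreting parietal cells. In 3 samples the drug was DMP-777, given to bring about spasmolytic polypeptide-expressing metaplasia (SPEM), in which mucus-secreting glands replace the normal lineages. L635, known as an analog of DMP-777 that lacks its inhibition of neutrophil elastase, was the drug in the other 3, used to induce an intestinalized form of SPEM. Untreated mice were not analysed here. Strain, age, dose, treatment time and the number of mice behind each library are not given in the sources, so the compounds cannot be compared at matched doses, and the p-values reflect only how these samples vary, which may be technical variation.

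Cholesterol is built from acetyl-CoA, first through mevalonate to farnesyl diphosphate, then through squalene to lanosterol, whose ring system is trimmed and its double bonds moved and reduced to give cholesterol. Fatty acids branch from the same acetyl-CoA and are afterwards elongated and desaturated. Both arms are transcribed under the SREBP factors. These are held in the endoplasmic reticulum by the escort Scap and the Insig proteins when sterols are plentiful, and are released to the nucleus when sterols run low. In macrophages the pathway is also known to be tied to inflammatory signalling.

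No member differed between the treatments past the threshold. Dhcr7 and Ebp, which act late in sterol synthesis, were lower in all 3 L635 libraries than in any DMP-777 library. Their average difference was 1.28 and 0.95 on the log2 scale, and the desaturase Scd2 had the third smallest p. The SREBP genes Srebf1 and Srebf2, the escort Scap and the core enzymes of fatty acid synthesis, Acaca and Fasn, had log2 fold changes between -0.13 and 0.16. In all, 19 of the 30 had a negative log2 fold change and 11 a positive one, with a median of -0.18, beside a median of 0.0 over all genes tested and 49.8% of these negative. The number of negative members was 18 after quantile normalization and 22 under median centring. These fold changes are differences of the mean log2(RPKM + 1), L635 minus DMP-777, where RPKM is a read count scaled by transcript length and library size.

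By limma's moderated test with Benjamini-Hochberg adjustment, 0 members passed an adjusted p of 0.05, as did 0% of all genes. The smallest adjusted p was 0.414 among the members and 0.308 among all genes. At an unadjusted p below 0.05 stood 3 members, Dhcr7, Ebp and Scd2, all lower in L635. This is 3 of 30, beside 10.1% of all genes tested and 6.33% for the lower direction alone. The groups did not overlap for 3 members, Dhcr7, Ebp and Insig2, again all lower in L635, beside 16% of all genes for either direction and 8.75% for the lower direction. Among all genes at an unadjusted p below 0.05, 37.4% were higher in L635, a share of 47.1% after quantile normalization and 26.5% under median centring of each library. The number of members at this p was 6 without L635 replicate 1, where Fdps, Fdft1 and Elovl1 joined the 3, and the background was then 13.0%. It was 2, Dhcr7 and Ebp, without L635 replicate 2 or without replicate 3, with backgrounds of 6.68% and 5.39%. The median 95% interval of a member reached 0.81 to either side on the log2 scale, so smaller differences could not be told from none.

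The size of 1 read, estimated from a weak regular spacing of low values, put the libraries at 4300000 to 20900000 reads. On that estimate, 1 RPKM on a gene of 1 kilobase stood for 4.3 to 20.9 reads. For L635 replicate 2, the lowest, 2100000 reads was not excluded. The lowest value listed is 1 in every library, a floor that can stand for any lower value. Over the 6 libraries 28 members stayed above it. The exceptions were Tm7sf2 in DMP-777 replicate 1 and Scd1 in L635 replicate 3. The members were mostly well expressed, with a median at the 68.1th percentile of tested genes.

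Promoters of 3 members are shown. Among the 24 members with a matched promoter, Hmgcs1 is the only one with the sterol-element letters searched for. Ebp and Dhcr7 had the smallest p-values and were chosen after their values were seen. Each sequence is the 250 bases before a RefSeq transcription start on GRCm38.p6, on the gene's own strand. Capitals mark TCACNCCAC, the core of a sterol regulatory element, and CCAAT, the letters bound by NF-Y, on either strand, so that CCAAT also appears as ATTGG. The windows are chr13:119690101-119690350 on the plus strand for Hmgcs1, chrX:8193513-8193762 on the minus strand for Ebp and chr7:143829964-143830213 on the plus strand for Dhcr7. For Dhcr7 the window with the most CCAAT letters was picked. Its other windows begin at 143822917 and 143823149, near the annotated start of the gene at 143823145, and each holds 0 CCAAT matches.
Hmgcs1: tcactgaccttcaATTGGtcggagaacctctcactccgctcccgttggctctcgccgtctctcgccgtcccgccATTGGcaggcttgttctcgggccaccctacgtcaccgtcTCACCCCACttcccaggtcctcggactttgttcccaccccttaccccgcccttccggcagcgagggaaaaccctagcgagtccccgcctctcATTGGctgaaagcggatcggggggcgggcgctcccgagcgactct
Ebp: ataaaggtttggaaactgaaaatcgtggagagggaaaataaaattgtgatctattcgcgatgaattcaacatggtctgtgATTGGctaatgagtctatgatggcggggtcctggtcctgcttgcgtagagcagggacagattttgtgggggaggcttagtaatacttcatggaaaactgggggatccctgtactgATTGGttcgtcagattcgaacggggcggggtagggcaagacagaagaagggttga
Dhcr7: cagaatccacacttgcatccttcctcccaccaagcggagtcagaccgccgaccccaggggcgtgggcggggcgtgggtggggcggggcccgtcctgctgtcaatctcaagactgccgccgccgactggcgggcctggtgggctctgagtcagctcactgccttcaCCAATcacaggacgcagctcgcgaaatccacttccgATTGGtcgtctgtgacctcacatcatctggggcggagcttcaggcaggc

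RefSeq promoters were matched for 24 of the 30 members and for 8790 tested genes. Fdps, Fdft1, Sqle, Scd1, Scd2 and Fads1 had no matched promoter and were not searched. CCAAT was found, on either strand in at least 1 of a gene's windows, for 19 of the 24 members (79.2%), beside 40.3% of the tested genes and 33.8% of all 32851 windows in the table. The Sp1-type letters GGGCGG were found for 20 of the 24 (83.3%), beside 62.9% of tested genes and 32.7% of all windows. The E-box CACGTG was found for 4 members, Dhcr7, Insig1, Sc5d and Scap (16.7%), beside 10.1% of tested genes and 6.02% of all windows. TCACNCCAC was found for Hmgcs1 only (4.17%), beside 1.31% of tested genes and 1.05% of all windows. Members had 1.38 windows per gene and tested genes 1.28. None of the 4 motifs contains another. A match is a description of these letters in this window and does not show that a factor binds there.

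Of the 6 mevalonate pathway genes, Hmgcs1, Fdps and Idi1 were the abundant ones, and none of the 6 was at an unadjusted p below 0.05. Hmgcs1, the cytosolic synthase that makes HMG-CoA, was the most abundant member of the pathway. In order of replicates 1, 2 and 3, as in all lists of 3 values that follow, it stood at 87.0, 66.0 and 46.1 RPKM under DMP-777, against 43.3, 57.7 and 54.2 under L635. The highest values were in DMP-777 replicates 1 and 2, while DMP-777 replicate 3 lay among the L635 libraries. Its log2 fold change was -0.32 ± 0.31 (SE, limma adjusted p = 0.748), and it turned to 0.13 after quantile normalization. Fdps, the farnesyl diphosphate synthase, was at 60.8 ± 13.1 RPKM under DMP-777 against 43.3 ± 21.5 under L635 (SD, n = 3 each). Its spread in L635 ran from 21.8 in replicate 2 to 64.8 in replicate 1. A share of 26.7% of the exonic bases of Fdps is also annotated to the predicted gene Gm43738 on the same strand, so its reads may be shared. The isomerase Idi1 was at 39.2 ± 10.9 and 34.3 ± 2.27 RPKM, a difference whose sign turned after quantile normalization. The kinases Mvk and Pmvk and the decarboxylase Mvd stood lower, between 2.88 and 21.1 RPKM over all libraries. Of the 6 genes, 4 had a negative log2 fold change, from -0.59 to 0.13. The median was -0.17, and it was 0.10 after quantile normalization and -0.04 without L635 replicate 2.

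In the squalene branch, differences were larger toward the end of the pathway. Fdft1, the squalene synthase and the most abundant gene of the branch, was at 84.2, 54.7 and 51.2 RPKM under DMP-777, against 60.7, 31.6 and 40.9 under L635. L635 replicate 1 lay above DMP-777 replicates 2 and 3, so the groups overlapped, and the log2 fold change was -0.52 ± 0.33 (limma adjusted p = 0.609). A share of 18.3% of the exonic bases of Fdft1 overlaps exons of Ctsb on the opposite strand. Ctsb encodes the lysosomal protease cathepsin B, and stood at 197 ± 32.2 RPKM under DMP-777 against 153 ± 53.0 under L635. Whether strand was used in counting is not given in the sources used here, so the reads of Fdft1 are uncertain. Sqle, the squalene epoxidase, was at 18.4 ± 2.60 and 15.4 ± 2.98 RPKM, and the lanosterol demethylase Cyp51 at 47.2 ± 9.19 and 38.0 ± 1.99. The sign for Cyp51 turned after quantile normalization. Lss, the cyclase that makes lanosterol, and Tm7sf2, a sterol C14 reductase, were among the 4 sterol genes with a positive log2 fold change, at 0.34 and 0.26. For Tm7sf2 this rested on DMP-777 replicate 1, which was at the floor, and the value was -0.30 without that library.

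Both sterol enzymes whose groups did not overlap, Ebp and Dhcr7, act late in the route. Nsdhl, which removes a C4 carboxyl group from the ring, was at 24.9 ± 5.02 RPKM under DMP-777 against 17.5 ± 2.60 under L635, with overlap between DMP-777 replicate 3 at 19.3 and L635 replicate 1 at 20.3. Ebp, the isomerase that moves the ring double bond of the sterol nucleus (chromosome X, 8185329 to 8193512, GRCm38), was at 20.2, 23.7 and 22.2 RPKM under DMP-777, against 12, 10.8 and 10.0 under L635. The groups were well apart and each was tight. Its log2 fold change was -0.95 ± 0.32 (SE), with a 95% interval from -1.63 to -0.26 (unadjusted p = 0.0104, limma adjusted p = 0.414), lower in 3 of 3 L635 libraries.

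Sc5d, the desaturase that acts after Ebp (its library values are given after they were seen), was at 37.2, 42.9 and 23.7 RPKM under DMP-777, against 25.6, 21.7 and 23.1 under L635. DMP-777 replicate 3 alone brought the groups to overlap, and without it the unadjusted p was 0.0438 by limma. Its log2 fold change over all libraries was -0.50. Dhcr7, the reductase of 7-dehydrocholesterol and the last enzyme of this route (chromosome 7, 143823145 to 143848410), was at 13.1, 18.3 and 18.0 RPKM under DMP-777, against 10.6, 5.07 and 4.15 under L635. L635 replicate 1 lay close below DMP-777 replicate 1, and the other two L635 libraries far below. The log2 fold change was -1.28 ± 0.42, the most negative of the 30, with a 95% interval from -2.18 to -0.38 (unadjusted p = 0.00915, limma adjusted p = 0.414). Under the 15 alternative settings run, the log2 fold change of Dhcr7 ranged from -1.63 to -0.92 and that of Ebp from -1.04 to -0.74, and the unadjusted p of both stayed below 0.05 in all 15, while the adjusted p ranged from 0.265 to 0.916 for Dhcr7 and from 0.302 to 0.916 for Ebp. No exon of Ebp or Dhcr7 overlaps an exon of another annotated gene in GENCODE M21. Of the 9 genes of the branch, 7 were negative on the log2 scale. The median was -0.48, and it was -0.20 after quantile normalization, -0.30 without DMP-777 replicate 1 and -0.31 without L635 replicate 2.

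**Figure D1:**
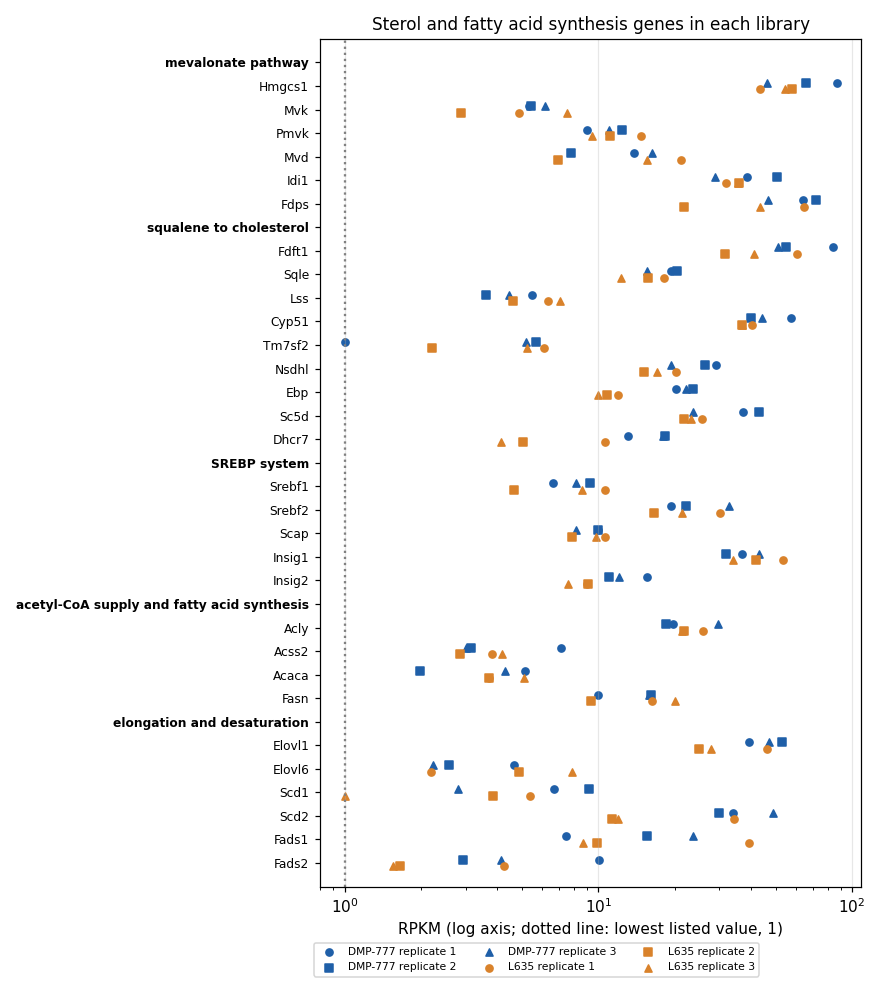
RPKM of each of the 30 genes in each library on a log axis, grouped by role. Blue points are DMP-777 and orange points L635, and the shapes are replicates 1, 2 and 3. The orange points of Ebp, Dhcr7 and Insig2 all lie left of the blue ones.

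The SREBP genes showed no common shift. Srebf2, the factor that chiefly drives the sterol genes, was at 19.3, 22.2 and 32.8 RPKM under DMP-777, against 30.2, 16.5 and 21.3 under L635. The groups were interleaved, and the log2 fold change was -0.13 (95% interval -0.86 to 0.61). Srebf1, whose SREBP-1c form chiefly drives fatty acid genes, was at 6.64, 9.24 and 8.18 RPKM under DMP-777, against 10.6, 4.67 and 8.65 in L635. Both the highest and the lowest value were in L635, and the log2 fold change was -0.06 (interval -0.99 to 0.86). A gene-level value cannot separate the isoforms of Srebf1. The escort Scap was the steadiest member, between 7.91 and 10.6 RPKM over the 6 libraries, although 13.2% of its exonic bases overlap an antisense transcript. The direction of Srebf1, Srebf2 and Scap turned under at least 1 alternative setting.

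The paralogs Insig1 and Insig2 had log2 fold changes of opposite sign, and neither passed the test. Insig1, itself an SREBP target whose protein retains the Scap complex, was the most abundant of these 5 genes. It was at 36.9, 31.8 and 42.8 RPKM under DMP-777, against 53.5, 41.8 and 33.8 under L635. The groups overlapped, with a log2 fold change of 0.19, between 0.03 and 0.47 under the 15 alternatives. Insig2, its close paralog (chromosome 1, 121304353 to 121332589), was at 15.5, 11 and 12.1 RPKM under DMP-777, against 9.02, 9.11 and 7.61 in L635. All 3 L635 libraries lay below all 3 DMP-777 libraries, but the log2 fold change was small, at -0.52 ± 0.36 (unadjusted p = 0.171, limma adjusted p = 0.637). With no filter on low values its unadjusted p was 0.0235 by limma. The ratio of Insig1 to Insig2, computed after their values were seen, was 2.38, 2.89 and 3.54 under DMP-777, against 5.93, 4.59 and 4.44 under L635. The groups did not overlap, and the mean log2 ratio was 1.54 ± 0.29 under DMP-777 against 2.31 ± 0.23 under L635 (SD, n = 3 each). An exact permutation test on the log2 ratio gave p = 0.1, the smallest value possible with 3 libraries a group. As the ratio was picked for this pattern, no conclusion is drawn from that test.

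**Figure D2:**
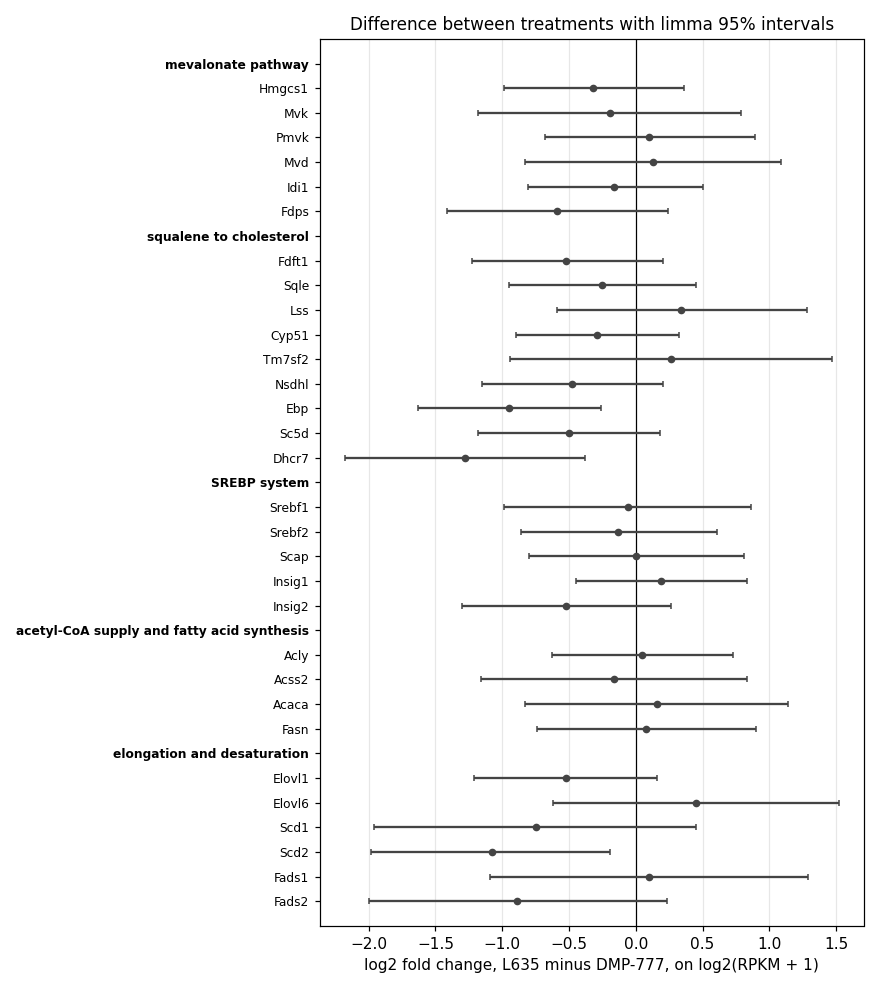
Log2 fold change of each gene, L635 minus DMP-777, on log2(RPKM + 1), with the 95% interval from limma as bars. The intervals of Dhcr7, Ebp and Scd2 lie below 0, and the other 27 include it.

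Genes of acetyl-CoA supply and of fatty acid synthesis itself had log2 fold changes near 0 with wide intervals. Acly, the enzyme that makes cytosolic acetyl-CoA from citrate, was the most abundant of the 4. It stood at 19.6, 18.4 and 29.6 RPKM under DMP-777, against 25.9, 21.8 and 21.3 under L635. The L635 values lay within the range of DMP-777, and the log2 fold change was 0.05 (95% interval -0.63 to 0.73). Fasn, the fatty acid synthase, was at 14 ± 3.42 and 15.2 ± 5.43 RPKM, and Acaca, the acetyl-CoA carboxylase, at 3.81 ± 1.64 and 4.17 ± 0.787. Acss2, which makes acetyl-CoA from acetate, was at 4.42 ± 2.33 and 3.61 ± 0.692, with DMP-777 replicate 1 at 7.11 and all other libraries at or below 4.19. The intervals of Fasn and Acaca ran from -0.74 to 0.90 and from -0.83 to 1.14. With a trend on transcript length and GC content removed from each library, the log2 fold changes of Fasn and Acaca were -0.19 and -0.24.

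Elongation and desaturation genes spread widely between libraries, from lowest to highest by 6.51 times for Fads2, 5.24 for Fads1 and at least 9.21 for Scd1, whose lowest value was the floor. Elovl1, the elongase of very long chain saturated fatty acids and the most abundant gene of this group, was at 39.1, 52.9 and 47.1 RPKM under DMP-777, against 46.0, 24.9 and 27.7 under L635. L635 replicates 2 and 3 lay below all DMP-777 libraries and L635 replicate 1 among them, and the log2 difference was -0.52 ± 0.32 (limma adjusted p = 0.588). Scd2, a stearoyl-CoA desaturase that makes monounsaturated fatty acids (chromosome 19, 44293676 to 44306864), had a similar layout. It was at 33.8, 30 and 48.7 RPKM under DMP-777, against 34.1, 11.3 and 12 under L635. Its log2 fold change was -1.08 ± 0.41 (unadjusted p = 0.0209, limma adjusted p = 0.435). The unadjusted p of Scd2 was 0.0759 with DMP-777 replicate 3 left out, 0.0943 and 0.0914 with L635 replicates 2 and 3 left out in turn, and 0.0764 with no filter on low values. With L635 replicate 1 left out it was 0.000991 by limma, at a log2 fold change of -1.58.

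Scd1, its paralog and neighbour on chromosome 19, was lower in abundance, at 6.70, 9.21 and 2.79 RPKM under DMP-777, against 5.39, 3.85 and the floor of 1 under L635. The groups overlapped, and their log2 difference was -0.75 ± 0.56 (limma adjusted p = 0.664). Scd2 was above Scd1 in all 6 libraries, by 2.92 to 17.5 times in the 5 libraries where Scd1 was above the floor, although reads of such close copies may be shared. The fatty acid desaturases Fads1 and Fads2, which act on polyunsaturated chains and also lie side by side on chromosome 19, had values of opposite sign. Fads1 ranged from 7.48 RPKM in DMP-777 replicate 1 to 39.2 in L635 replicate 1, with a log2 fold change of 0.10 that was -0.56 without L635 replicate 1. Fads2 ranged from 1.55 in L635 replicate 3 to 10.1 in DMP-777 replicate 1, with a log2 fold change of -0.89 and an interval from -2.0 to 0.23. Elovl6, which elongates palmitate, was the gene of the group with the most positive value, 0.45, and was highest in L635 replicate 3 at 7.85 RPKM. Of the 6 genes, 4 were negative on the log2 scale. The median was -0.64, and with L635 replicate 3 left out it was -0.35, with replicate 1 left out -0.94.

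The members were least expressed in L635 replicate 2, which held the lowest value for 13 of the 30 genes and the highest for 0. That library also had the lowest median log2(RPKM + 1) over all genes tested, 2.93, beside up to 3.30 in the others, and the lowest estimated depth. The part of either in the members' levels was not tested. L635 replicate 1 held the highest value for 7 and the lowest for 2. The mean log2(RPKM + 1) level of the 30 genes was 4.08, 4.03 and 4.02 under DMP-777, against 4.08, 3.53 and 3.74 under L635. L635 replicate 1 was thus at the level of the DMP-777 libraries. Over the 15 enzymes of the sterol arm the mean level was 4.42, 4.48 and 4.31 under DMP-777, against 4.35, 3.82 and 4.11 under L635. Over the 10 genes of the fatty acid arm it was 3.59, 3.39 and 3.52 under DMP-777, against 3.61, 3.01 and 3.12 under L635.

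These are mixed sorted samples, in which fewer cells of a type and less RNA per cell cannot be told apart. Of 11 macrophage markers measured all 11 were tested, and their summed level was between 1480 and 2570 RPKM in DMP-777 and between 1280 and 2540 in L635. Of the 11, 7 had a negative log2 fold change and 4 a positive one, with a median of -0.22. Emr1 itself was at 76.3 ± 26.3 and 88.7 ± 43.6 RPKM. C1qa had the most negative value, -1.39, at 167 ± 69.8 RPKM under DMP-777 against 71.4 ± 54.8 under L635. Its groups overlapped (limma adjusted p = 0.419). Surface mucous cells line the gastric pits. Among 12 marker lists, theirs was the only one whose summed level did not overlap between the groups, being lower in L635. All 6 of these markers were present in every library. Their sum was between 4150 and 11200 RPKM in DMP-777 and between 2460 and 2780 in L635. Tff1, Gkn1 and Gkn2, the 3 most abundant, were each lower in every L635 library than in any DMP-777 library. Muc5ac, Muc1 and Gkn3 overlapped between the groups. Whether this bears on Dhcr7 and Ebp, also lower in L635, was not tested. General epithelial markers (6 of 7 tested) summed to between 760 and 1160 RPKM in DMP-777 and between 612 and 857 in L635. Parietal cell markers (6 of 7 tested, with Slc26a7 at the floor throughout) summed to between 394 and 1130 in DMP-777 and between 155 and 767 in L635. L635 replicate 1 had a mast cell sum of 920 RPKM, beside 8.15 in L635 replicate 3 and 77.8 in replicate 2, and DMP-777 held 202 to 393. L635 replicate 2 had an eosinophil sum of 144, beside at most 35.1 elsewhere, with Epx at the floor in all. Mucous neck and SPEM markers summed to 556 to 660 RPKM in DMP-777 and 407 to 560 in L635, and chief cell markers to 524 to 895 and 541 to 726 with Lipf at the floor. Fibroblast markers reached at most 78.3 RPKM, neutrophil markers 59.7 with Elane, Mpo and Ly6g at the floor, lymphocyte markers 18.8 with Cd3g at the floor, and endothelial markers 12.7 with Kdr at the floor. All of these cells can express the sterol and fatty acid genes, and the part of each in the results above was not tested.

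**Figure D3:**
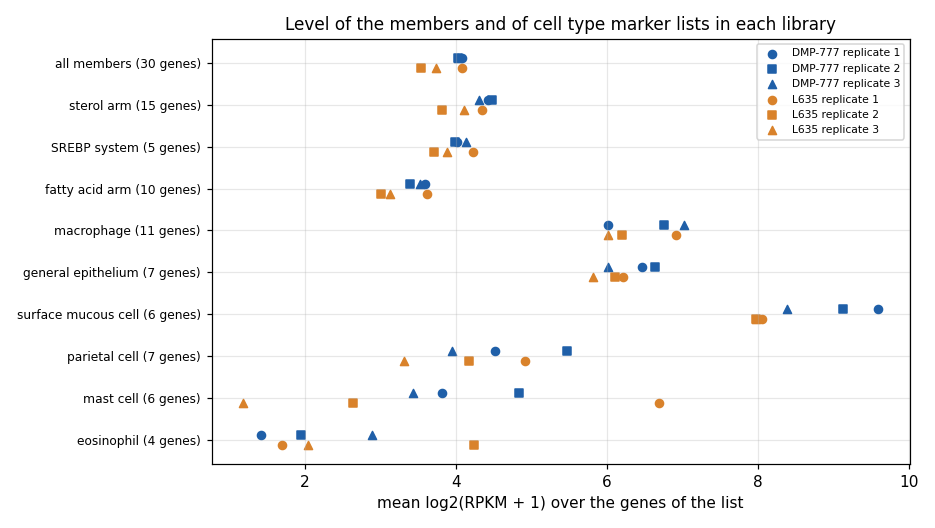
Mean log2(RPKM + 1) over the genes of each list, in each library, for the members, their arms and cell type marker lists. Blue points are DMP-777, orange points L635. The 3 L635 libraries lie below the 3 DMP-777 libraries for surface mucous cell markers, and L635 replicate 1 stands at the DMP-777 level for the members.

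Other genes of the pathway, from lists drawn up alongside the members, showed a like pattern of small differences with a few lower genes. None passed an adjusted p of 0.05. Beside the counts that follow, 6.33% of all genes tested were lower in L635 at an unadjusted p below 0.05 by limma. For 8.75% of all genes tested, every L635 library lay below every DMP-777 library. Of 7 further sterol synthesis genes measured, 6 were lower in L635 on average, the median was -0.07 and 0 were at an unadjusted p below 0.05. Sc4mol, the methyl sterol oxidase that works just before Nsdhl, was lower in each L635 library than in any DMP-777 library, at 23.1 ± 4.21 RPKM under DMP-777 against 14.8 ± 3.84 under L635 (log2 fold change -0.62, limma adjusted p = 0.544), and had -0.40 without L635 replicate 3. Acat2, the cytosolic thiolase that feeds the pathway, had -0.72, but -0.22 without L635 replicate 2, and its groups overlapped. Lbr, a lamin B receptor with sterol C14 reductase activity, had 0.24.

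Of 9 tested genes of sterol uptake and transport, 7 were negative, and Tmem97 alone was at an unadjusted p below 0.05. Tmem97 binds the cholesterol transporter NPC1 and is known to be sterol-regulated. It was at 27.0, 38.1 and 21.8 RPKM under DMP-777, against 12.7, 12 and 15.3 under L635, without overlap. Its log2 fold change was -1.03 ± 0.33 (limma adjusted p = 0.413). Mylip, a ubiquitin ligase induced by sterols through liver X receptors, had 0.72, but 0.08 without DMP-777 replicate 1, where it was at 1.3 RPKM. Npc1 had -0.38, but -0.06 without DMP-777 replicate 3 and -0.20 without L635 replicate 3, and -0.65 without L635 replicate 1. Among 11 genes of SREBP processing and turnover, 6 were negative, with a median of -0.22. Ufd1l, a subunit of the complex that draws proteins out of the endoplasmic reticulum for degradation, had -0.36, and the site-1 protease Mbtps1 had -0.43. Without L635 replicate 2 these were -0.21 and -0.11, and Ufd1l had -0.55 without L635 replicate 3.

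Genes of liver X receptors and sterol efflux were divided, 6 negative and 5 positive, with a median of -0.05. Rxrb, a partner of these receptors, was lower in every L635 library than in any DMP-777 library, with -0.96 (unadjusted p = 0.0532, limma adjusted p = 0.497), and its unadjusted p was below 0.05 in 7 of the 15 alternatives. The cholesterol exporters Abcg1 and Abca1 had -0.55 and 0.41, between -0.84 and -0.25 and between 0.13 and 0.60 under the alternatives. Of 16 tested genes that also serve fatty acid synthesis, 11 were negative, with a median of -0.27, and 3 stood at an unadjusted p below 0.05. These were Slc25a1, the mitochondrial citrate carrier that supplies Acly, at 42.3 ± 4.93 RPKM under DMP-777 against 23.1 ± 4.43 under L635 (log2 fold change -0.86), the mitochondrial transacylase Mcat (-1.34) and Mid1ip1, an activator of acetyl-CoA carboxylase (-0.67), at limma adjusted p = 0.419, 0.472 and 0.481. Slc25a1 and Mid1ip1 did not overlap between the groups, and Mcat had -0.89 without DMP-777 replicate 2. Another 6 genes of this list were too low to be tested, among them Elovl3 and Scd4, which were at the floor in all libraries.

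Fatty acid oxidation, the opposing process, gave the most negative median of the 6 lists, -0.47. Of 11 tested genes 10 were negative, beside 49.8% of all genes tested. At an unadjusted p below 0.05 by limma stood 3, all lower in L635, beside 6.33% of all genes for this direction. Cpt2, which hands acyl groups to the matrix for oxidation, was at 49.0 ± 12.5 RPKM under DMP-777 against 24.4 ± 7.04 under L635 (log2 fold change -0.99, limma adjusted p = 0.414). The dehydrogenase Acadm and the carnitine carrier Slc25a20 had -0.77 and -0.72 (limma adjusted p = 0.435 and 0.464). All 3 were lower in every L635 library than in any DMP-777 library, as were 8.75% of all genes tested.

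**Figure D4:**
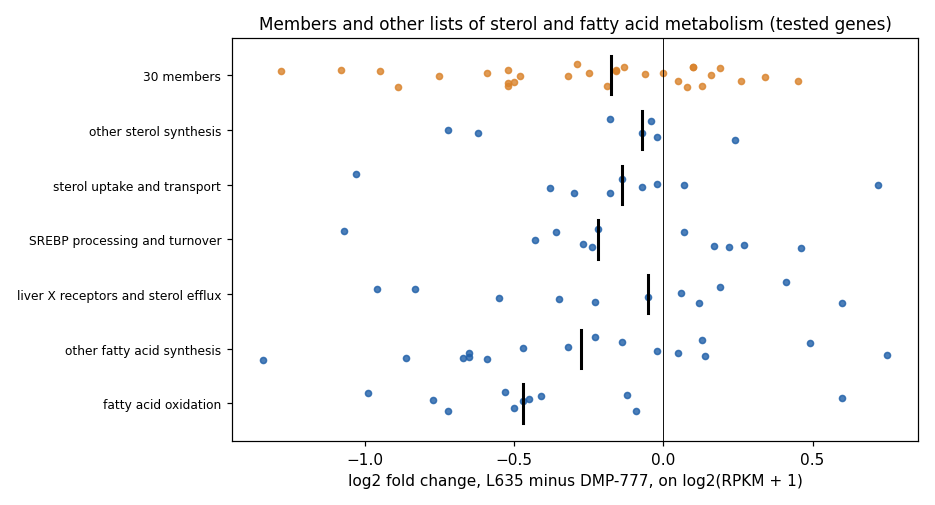
Log2 fold change, L635 minus DMP-777, of each tested gene in the members (orange) and in 6 other lists of sterol and fatty acid metabolism (blue), with the median of each list as a black bar. The medians run from -0.47 in fatty acid oxidation to -0.05 in liver X receptors and sterol efflux, and the median of the members is -0.18.

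Dhcr7, Ebp, Scd2 and Insig2 kept their direction under all 15 alternatives. The plot of fold changes by setting shows Dhcr7 and Ebp below -0.7 throughout, Insig2 between -0.62 and -0.39, and Srebf2 on both sides of 0.

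**Figure D5:**
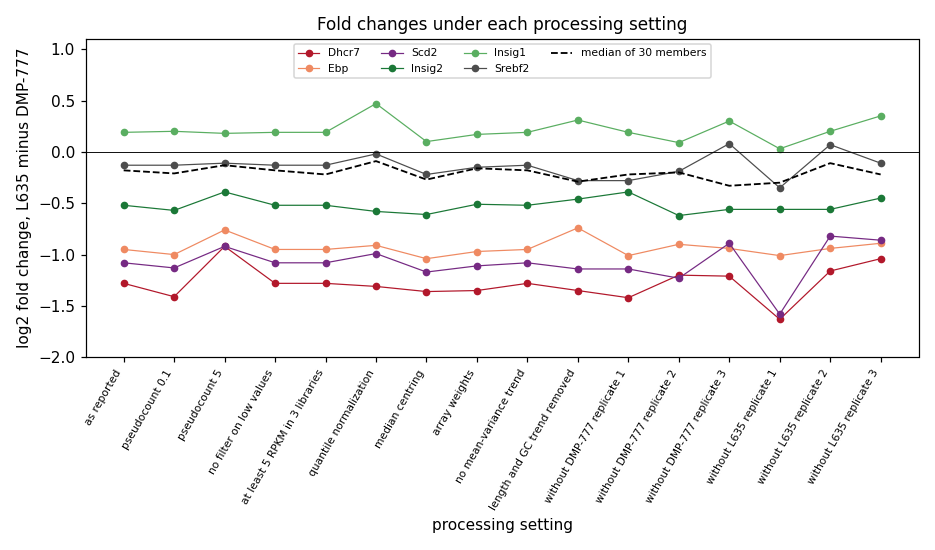
Log2 fold change, L635 minus DMP-777, of 6 members and the median of all members (dashed) as reported and under each of 15 alternative settings. The median ranges from -0.33 without DMP-777 replicate 3 to -0.09 after quantile normalization.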

How the data were processed

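RNA of sorted F4/80-positive corpus cells was amplified (NuGEN Ovation), sheared and sequenced as single-end reads, per the labels' protocols. The submitters' processing notes name FastQC, TopHat 1.4, SAMtools and the mm9 build, with no roles. The authors deposited 1 normalized column per library. Its unit was taken as RPKM, since low deposited values times exonic length showed a regular spacing, with a step per library. The spacing was weak. Its strength, which would be 1 if all values lay on the step, was 0.064 to 0.162. The medians over the steps tried were 0.017 to 0.02. The step gives an estimate of depth, except in DMP-777 replicate 2, where it fits 5700000 or 11400000 reads. For L635 replicate 2 a doubled step lay beyond the range tried, so 2100000 reads is not excluded beside 4300000. Of 22268 identifiers found in GENCODE M21, 99.8% overlap the same gene there, so coordinates are GRCm38.

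The members and lists were chosen with earlier results of these data known. Groups come from the sample titles. Log2(RPKM + 1) was fitted for rows above 1 in at least 3 libraries (limma 3.58.1, R 4.3.3, mean-variance trend, two-sided, Benjamini-Hochberg threshold 0.05), and the fit was tested on simulated data. Where rows share a symbol, that with the highest mean was used. With the floor and the pseudocount of 1, fold changes of low genes are understated. Values per library are given for members at an unadjusted p below 0.05 or with separate groups, the most abundant of each role, and the SREBP, Insig and Scd pairs, and up to 3 genes of smallest p are named per other list. Some listed genes are not reported here. Of the listed symbols, Msmo1 is present as Sc4mol, and Erg28 was not matched. RefSeq promoters were searched on both strands.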

Additional observations from a re-analysis of the deposited data

How the results depend on the processing

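With 3 libraries a group, only large differences could pass, and 0 members and 0 genes passed an adjusted p of 0.05 in limma under any of the 15 alternatives (at an unadjusted p below 0.05, 3 and 1223 as reported). Leaving out 1 library gave 622 to 1581 genes (622 without DMP-777 replicate 2, 652 without L635 replicate 3, 808 without L635 replicate 2) and 2 to 6 members at that p, the 6 without L635 replicate 1, and a median of the members from -0.33 to -0.11. No paired analysis was possible because the groups share no numbers in the labels. The reversed log2 fold changes were, after quantile normalization, Hmgcs1 0.13, Idi1 0.15, Cyp51 0.04, Scap -0.05 and Acaca -0.01; after median centring, Scap -0.08, Acly -0.04 and Fasn -0.01; with the length and GC trend removed, Scap -0.16, Acaca -0.24 and Fasn -0.19; and with array weights, Fads1 -0.05. Leaving out 1 library turned Mvk (-0.47 to 0.10), Pmvk (-0.06 to 0.23), Mvd (-0.19 to 0.55), Idi1 (-0.35 to 0.04), Tm7sf2 (-0.30 to 0.61), Srebf1 (-0.28 to 0.24), Srebf2 (-0.35 to 0.08), Scap (-0.09 to 0.11), Acly (-0.07 to 0.26), Acss2 (-0.34 to 0.17), Acaca (-0.15 to 0.37), Fasn (-0.14 to 0.37), Fads1 (-0.56 to 0.47) and Lbr (-0.09 to 0.45), here with their ranges. The other 15 members kept their sign in every alternative in which they were tested. With at least 5 RPKM required in 3 libraries, 26 of the 30 members were tested, without Acss2, Acaca, Elovl6 and Fads2. The cause was not tested.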
